A study of Mus musculus with 12 samples.

Results

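The 10 genes described here belong to the transforming growth factor beta (TGF-beta) pathway and were taken by symbol from the 25676 genes of the deposited expression table and followed across the livers of WT and *Yap1* knockout mice. They are the 3 ligands *Tgfb1*, *Tgfb2* and *Tgfb3*, the receptors *Tgfbr1*, *Tgfbr2* and *Tgfbr3*, the latency genes *Ltbp1* and *Ltbp2*, the intracellular inhibitor *Smad7* and the secreted matrix protein *Tgfbi*, the last a gene named for its induction by TGF-beta and neither a ligand, a receptor nor a latency gene. All 10 were in the table, and all 10 were among the 12278 genes tested, which had a mean over all mice of at least 0.5 TPM, a length-corrected transcript abundance scaled to a fixed sum in each library. *Tgfb2* and *Ltbp2* had WT means under that minimum and passed it through their KO values.

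TGF-beta is secreted in a latent form, wrapped in its own propeptide and usually bound to a latent TGF-beta binding protein that tethers it to the extracellular matrix. Integrins, thrombospondin-1 and proteases release it, and the free dimer binds the type II receptor TGFBR2, which recruits and phosphorylates the type I receptor TGFBR1. TGFBR1 then phosphorylates SMAD2 and SMAD3, which enter the nucleus with SMAD4, while SMAD7 blocks the type I receptor. In liver the pathway is known for turning stellate cells and portal fibroblasts into matrix-producing myofibroblasts and for restraining hepatocyte growth.

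The series holds whole-liver RNA sequencing of 12 mice on a C57BL/6 background, 3 to 4 months old, 1 library from each animal. There were 3 WT males, 3 WT females, 3 Foxa3-Cre YAP1 KO males and 3 Foxa3-Cre YAP1 KO females, and no treatment is given for any group. Cre recombinase under *Foxa3* control acts in the embryonic foregut endoderm, from which hepatocytes and bile duct cells descend, so the knockout is one of the liver epithelium from before birth and not of stromal, endothelial or blood cells. YAP1, the co-activator at the end of the Hippo pathway, acts on genes through DNA-binding TEAD proteins. The labels give neither the floxed allele nor whether the WT mice carried Cre.

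*Yap1* itself served as the check of the labels. It was at 27.5, 34.9 and 34.0 TPM in the WT males and at 23.0, 30.0 and 27.8 TPM in the WT females. It was at 1.39, 0.994 and 1.80 TPM in the KO males and at 3.11, 2.44 and 2.41 TPM in the KO females. No KO liver came near a WT liver, and the mean difference on the log2(TPM + 1) scale was -3.36 (exact permutation test within sex, two-sided p = 0.005, the smallest this design can give). Hepatocyte markers were abundant in every library, with the summed TPM of 6 of them at 74162 to 102331 in WT and 56274 to 81587 in KO livers. Read counts are not given in the sources used here. A relative depth was taken from the most common ratio of TPM values between libraries, which also depends on transcript composition. It put KO male 3 lowest, at 0.619 of WT female 3, the highest. WT libraries lay at 0.732 to 1 and KO libraries at 0.619 to 0.816, with 14321 to 15482 genes above 0 in each library.

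TPM is scaled to a fixed sum in each library, and the KO livers differed from WT in the abundance of a large part of their transcripts. Of the tested genes, 6745 (54.9%) passed the limma threshold for genotype, an adjusted p of 0.05, and 91.2% of these calls were higher in KO. The median of all tested genes was itself shifted by 0.35 on the log2 scale. After each library was rescaled by the median of its gene-wise ratios, as an alternative, that median was -0.04 and 52.8% of 4861 calls were higher. Values below are TPM as deposited unless called rescaled, and a rise is best read against the 0.35 shift.

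The promoters of *Tgfb2*, *Tgfbr2* and *Ltbp2* are shown because these were the genes among the 10 whose 6 KO values all lay above all 6 WT values under both scalings. The sequences are from RefSeq (GRCm38.p6), 5′ to 3′ on the strand of the gene. Those of *Tgfb2* (chr1:186705990-186706239, minus strand) and *Tgfbr2* (chr9:116175364-116175613, minus strand) are the 250 bases before the transcription start, and that of *Ltbp2* (chr12:84876533-84876741, minus strand) is the 209 of those bases that lie outside the gene's GENCODE span. Capitals mark the letters CAGACA or their reverse complement TGTCTG, the core that SMAD3 and SMAD4 can bind.
Tgfb2: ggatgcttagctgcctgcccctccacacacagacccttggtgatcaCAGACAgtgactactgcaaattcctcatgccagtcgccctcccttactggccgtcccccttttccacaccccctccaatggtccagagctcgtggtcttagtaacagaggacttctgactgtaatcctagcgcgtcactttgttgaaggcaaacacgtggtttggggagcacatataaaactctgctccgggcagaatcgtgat
Tgfbr2: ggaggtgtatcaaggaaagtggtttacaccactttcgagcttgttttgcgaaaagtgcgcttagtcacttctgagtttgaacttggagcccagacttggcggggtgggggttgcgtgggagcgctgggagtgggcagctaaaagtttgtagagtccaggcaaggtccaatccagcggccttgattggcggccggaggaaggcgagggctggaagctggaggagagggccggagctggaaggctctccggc
Ltbp2: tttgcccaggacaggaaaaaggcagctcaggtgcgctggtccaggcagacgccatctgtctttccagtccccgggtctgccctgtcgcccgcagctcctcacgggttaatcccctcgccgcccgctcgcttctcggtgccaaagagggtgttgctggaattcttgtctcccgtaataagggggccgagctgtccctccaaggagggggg
In all, 9 such 250-base windows from 7 of the 10 genes were used. Both strands were searched for CAGACA, for the TEAD motif CATTCC and for the AP-1 motif TGANTCA, motifs that do not overlap in these windows. The letters CAGACA were found in the *Tgfb2* window shown, at position -204 from the start site, in 1 of the 2 *Tgfbr1* windows and, 2 times, in 1 of the 2 *Ltbp1* windows. Of 32851 promoter windows of the same length, 17.1% held CAGACA, 12.6% held CATTCC and 6.75% held TGANTCA. None of the 9 windows held CATTCC or TGANTCA, which says only that these letters are not there.

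All 3 ligands rose in KO livers. *Tgfb1* was the most abundant of them in every liver, *Tgfb3* came next in each, and *Tgfb2* was the least abundant. The plot of the 10 genes by mouse shows the individual values.

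**Figure D1:**
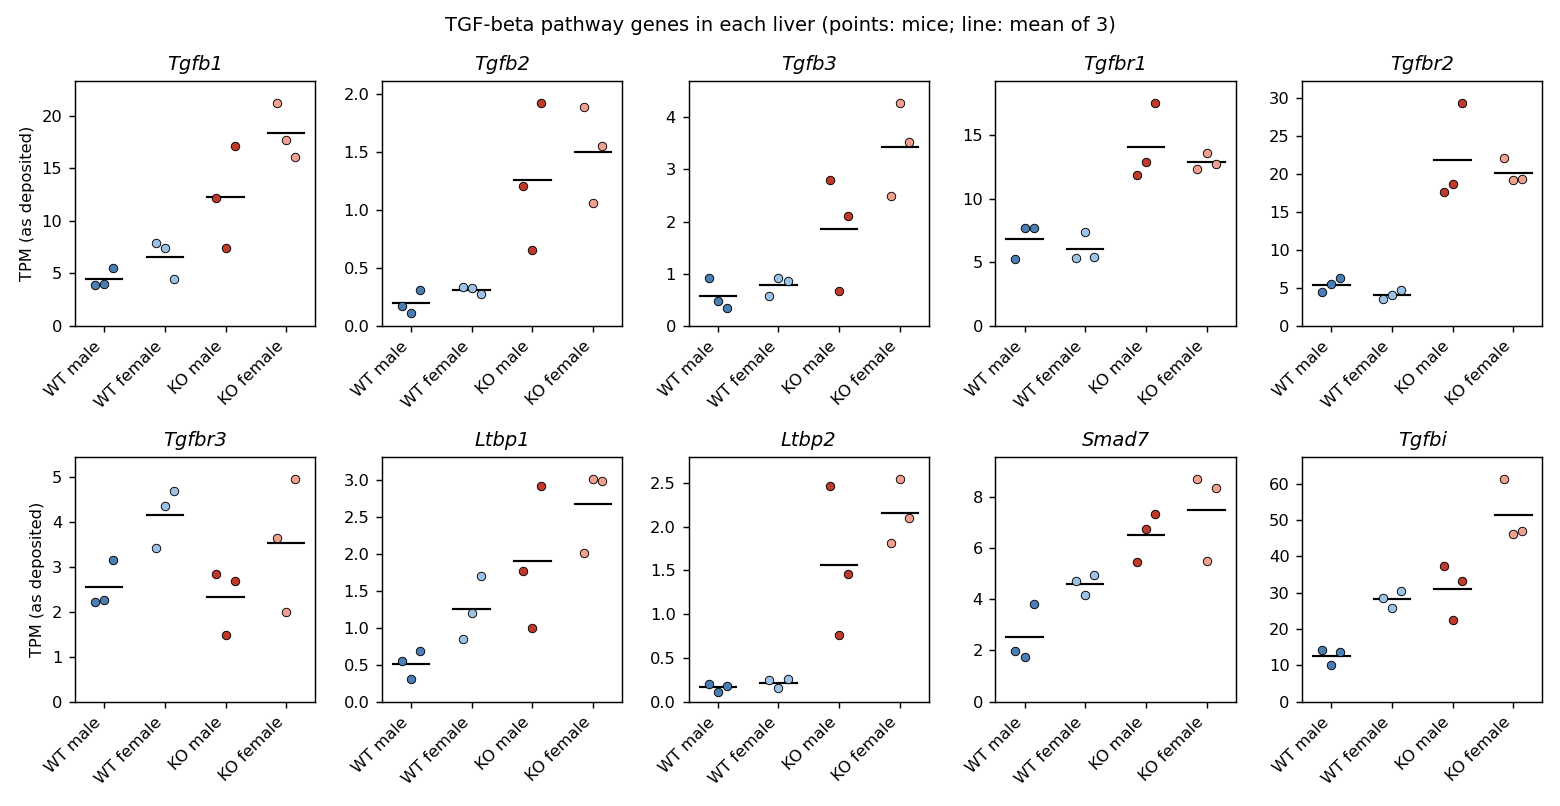
TPM as deposited of each of the 10 genes in each of 12 livers, with 1 panel a gene, points for mice and a line at the mean of the 3 mice of each group. The y axes start at 0 and differ between panels. In the *Tgfbr2* panel the KO points reach down to 17.7 TPM and the WT points up to 6.32 TPM, whereas in the *Tgfbr3* panel the KO and WT points are mixed.

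*Tgfb1* (ENSMUSG00000002603, chromosome 7, 25687002 to 25705077, plus strand of GRCm38) encodes the ligand best known from liver fibrosis. It was at 3.90, 3.96 and 5.48 TPM in WT males, 7.94, 7.38 and 4.47 in WT females, 12.2, 7.41 and 17.1 in KO males, and 21.2, 17.7 and 16.1 in KO females. KO males and WT males did not overlap, nor did KO females and WT females, but KO male 2 at 7.41 TPM lay under 1 WT female. Mean TPM was 5.52 ± 1.76 (SD, n = 6) in WT and 15.3 ± 4.82 (SD, n = 6) in KO livers, a ratio of 2.77 as deposited and 2.02 rescaled. On the log2(TPM + 1) scale the rise was 1.30 (SE 0.185, limma adjusted p = 6.5e-05), and 0.89 rescaled (limma adjusted p = 0.00109).

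*Tgfb2* (ENSMUSG00000039239, chromosome 1, 186622792 to 186705989, minus strand) was low in WT livers. It was at 0.175, 0.110 and 0.309 TPM in WT males and 0.336, 0.326 and 0.273 in WT females, against 1.21, 0.659 and 1.92 in KO males and 1.89, 1.06 and 1.55 in KO females. The lowest KO liver was above the highest WT liver. The mean went from 0.255 ± 0.0920 to 1.38 ± 0.497 TPM (SD, n = 6 each), a ratio of 5.42 as deposited and 3.96 rescaled, the largest of the 3 ligands. The log2(TPM + 1) rise was 0.90 (SE 0.140, limma adjusted p = 0.000135), a scale that understates the change of a gene this low. *Tgfb2* reached the minimum mean only through its KO values, and with no minimum for any gene its limma adjusted p was 0.000157. In units of the smallest step between TPM values of a gene, which is at least 1 read, the WT libraries held 7 to 21 steps and the KO libraries 32 to 113.

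*Tgfb3* (ENSMUSG00000021253, chromosome 12, 86056745 to 86079041, minus strand) was at 0.916, 0.482 and 0.339 TPM in WT males, 0.573, 0.920 and 0.861 in WT females, 2.80, 0.665 and 2.10 in KO males, and 2.50, 4.26 and 3.52 in KO females. All KO livers but KO male 2 were above every WT liver. The means were 0.682 ± 0.250 in WT and 2.64 ± 1.24 TPM in KO livers (SD, n = 6 each), and the rise on the log2(TPM + 1) scale was 1.04 (SE 0.202, limma adjusted p = 0.000736), or 0.79 rescaled (limma adjusted p = 0.00824). *Tgfb2* and *Tgfb3* each share exon bases with annotated genes on the opposite strand, 124 for *Tgfb2* and up to 257 with a single gene for *Tgfb3*, and whether counting used strand is not given in the sources used here.

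Summed over the 3 ligands, TPM ranged from 4.55 to 8.85 in WT and from 8.73 to 25.6 in KO livers, so the lowest KO liver lay just inside the WT range. *Tgfb1* made up 84.9 ± 4.91% of that sum in WT and 79.5 ± 3.94% in KO livers (SD, n = 6 each), a share that no scaling of a library can alter. The difference of -5.45 percentage points did not pass the test (exact permutation test within sex, two-sided p = 0.085). With each of the 12 libraries left out in turn, it ran from -7.12 to -4.18 points (exact permutation p from 0.025 to 0.17). The -7.12 points (exact permutation p = 0.025) came without WT male 1, the WT liver with the highest *Tgfb3* share. *Tgfb2* held 2.41 to 5.04% in WT and 4.59 to 9.09% in KO livers, where 1 KO female at 4.59% overlapped WT. *Tgfb3* held 5.54 to 18.3% in WT and 7.61 to 18.5% in KO livers, nearly the same range.

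The receptors did not move as a block. *Tgfbr2* rose most, *Tgfbr1* rose less, and *Tgfbr3* did not rise.

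*Tgfbr2* (ENSMUSG00000032440, chromosome 9, 116084293 to 116175360, minus strand) encodes the type II receptor that binds the ligand first. It was at 4.44, 5.47 and 6.32 TPM in WT males, 3.58, 4.03 and 4.70 in WT females, 17.7, 18.6 and 29.3 in KO males, and 22.1, 19.2 and 19.3 in KO females. The lowest KO liver was well above the highest WT liver in both sexes. The mean rose from 4.76 ± 0.997 to 21.03 ± 4.31 TPM (SD, n = 6 each), a ratio of 4.42 as deposited and 3.12 rescaled. The rise of 1.93 on the log2(TPM + 1) scale (SE 0.138, limma adjusted p = 1.42e-07) was the largest of the 10 genes on that scale, though *Ltbp2* and *Tgfb2* had larger ratios of mean TPM. It was 1.51 rescaled (limma adjusted p = 1.25e-06).

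*Tgfbr1* (ENSMUSG00000007613, chromosome 4, 47353222 to 47414931, plus strand), the type I receptor kinase, was at 5.23, 7.66 and 7.70 TPM in WT males, 5.32, 7.40 and 5.41 in WT females, 11.9, 12.9 and 17.5 in KO males, and 12.3, 13.6 and 12.7 in KO females. The groups did not overlap as deposited, but after rescaling they did, with WT male 2 at 10.6 and KO female 1 at 9.61. The log2 rise was 0.96 (SE 0.130, limma adjusted p = 4.2e-05), and 0.54 rescaled (limma adjusted p = 0.00444). In the authors' deposited table *Tgfbr1* had a log2 fold change of 0.47 with an FDR of 0.06, and of the 9 genes that rose here it was the only 1 that did not pass there.

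Within each library the ratio of *Tgfbr2* to *Tgfbr1* TPM also differed by genotype, and no scaling of a library can alter such a ratio. It was 0.849, 0.715 and 0.821 in WT males and 0.672, 0.545 and 0.868 in WT females, against 1.49, 1.45 and 1.68 in KO males and 1.79, 1.41 and 1.52 in KO females. *Tgfbr1* was the more abundant in all 6 WT livers and *Tgfbr2* the more abundant in all 6 KO livers. The log2 ratio was higher by 1.08 in KO (exact permutation test within sex, two-sided p = 0.005, the smallest possible), by 0.95 in males and by 1.199 in females. The means of the ratio were 0.745 ± 0.125 and 1.56 ± 0.146 (SD, n = 6 each).

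**Figure D2:**
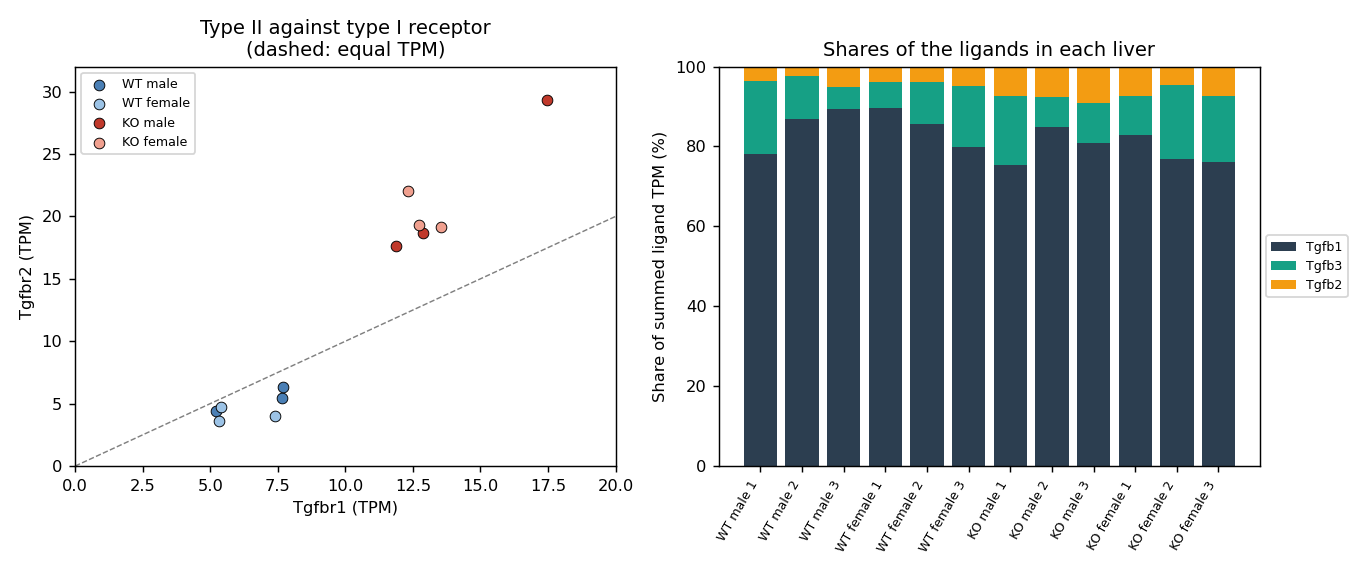
Left, *Tgfbr2* against *Tgfbr1* TPM as deposited in each of 12 livers, with the dashed line at equal TPM. Right, the percent of summed ligand TPM held by *Tgfb1*, *Tgfb3* and *Tgfb2* in each liver as stacked bars. All 6 WT points lie under the dashed line and all 6 KO points above it, whereas *Tgfb1* holds most of the ligand sum in every liver of both genotypes.

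*Tgfbr3* (ENSMUSG00000029287, chromosome 5, 107106570 to 107289629, minus strand) encodes betaglycan, the co-receptor that presents ligand, TGF-beta 2 above all, to TGFBR2. It was at 2.23, 2.27 and 3.15 TPM in WT males, 3.43, 4.35 and 4.68 in WT females, 2.85, 1.48 and 2.69 in KO males, and 3.65, 1.99 and 4.96 in KO females. As deposited, KO and WT livers were mixed in both sexes. Rescaled, the KO males, at 1.28 to 2.63 TPM, all lay under the WT males, at 2.71 to 3.72 TPM, and the females still overlapped. The log2 difference was -0.17 (SE 0.174, limma adjusted p = 0.43) as deposited. Rescaled, it was -0.51 and passed (limma adjusted p = 0.0227), but not without KO male 2 (-0.43, limma adjusted p = 0.051). It passed in neither sex alone under either scaling, and the authors' deposited table gives -0.37 with an FDR of 0.36.

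Both latency genes rose. *Ltbp1* (ENSMUSG00000001870, chromosome 17, 75005568 to 75392512, plus strand) encodes a binding protein that couples to the TGF-beta propeptide. It was at 0.550, 0.304 and 0.681 TPM in WT males, 0.849, 1.21 and 1.70 in WT females, 1.77, 1.00 and 2.92 in KO males, and 2.01, 3.01 and 2.99 in KO females. Within each sex all KO livers were above all WT livers, and across sexes KO male 2 at 1.00 TPM lay under 2 WT females. The means were 0.882 ± 0.503 and 2.28 ± 0.825 TPM (SD, n = 6 each), and the log2(TPM + 1) rise was 0.80 (SE 0.168, limma adjusted p = 0.00132), or 0.55 rescaled (limma adjusted p = 0.0132).

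*Ltbp2* (ENSMUSG00000002020, chromosome 12, 84783212 to 84876532, minus strand) belongs to the same family but is not known to bind latent TGF-beta, and it sits on elastic microfibrils. It was at 0.202, 0.108 and 0.181 TPM in WT males and 0.244, 0.153 and 0.262 in WT females, against 2.47, 0.759 and 1.46 in KO males and 1.81, 2.54 and 2.10 in KO females. No KO liver overlapped a WT liver. The mean went from 0.192 ± 0.0571 to 1.86 ± 0.674 TPM (SD, n = 6 each), a ratio of 9.69 as deposited and 7.20 rescaled, the largest ratio of the 10 genes. The log2(TPM + 1) rise was 1.22 (SE 0.1503, limma adjusted p = 1.81e-05). *Ltbp2* too reached the minimum mean only through its KO values, and with no minimum its limma adjusted p was 3.75e-05. WT libraries held 9 to 25 steps of this gene and KO libraries 48 to 166, and 764 of its exon bases are shared with an annotated antisense gene.

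*Smad7* (ENSMUSG00000025880, chromosome 18, 75367529 to 75395935, plus strand), the inhibitory SMAD that the pathway itself induces, was at 1.999, 1.75 and 3.83 TPM in WT males, 4.69, 4.16 and 4.93 in WT females, 5.46, 6.73 and 7.31 in KO males, and 8.68, 5.47 and 8.32 in KO females. The lowest KO liver was above the highest WT liver as deposited, and the groups overlapped after rescaling, with WT female 3 at 5.38 and KO female 2 at 4.88. The log2 rise was 0.85 (SE 0.172, limma adjusted p = 0.000999), and 0.48 rescaled (limma adjusted p = 0.0189).

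*Tgfbi* (ENSMUSG00000035493, chromosome 13, 56609523 to 56639562, plus strand) encodes a secreted protein that links collagens and integrins. It was at 14.2, 10.2 and 13.8 TPM in WT males, 28.4, 25.8 and 30.4 in WT females, 37.4, 22.5 and 33.2 in KO males, and 61.3, 46.1 and 46.9 in KO females. Within each sex KO was above WT without overlap, while KO male 2 lay under all 3 WT females. The means were 20.5 ± 8.73 and 41.2 ± 13.3 TPM (SD, n = 6 each), and the log2 rise was 1.02 (SE 0.145, limma adjusted p = 6.5e-05), or 0.57 rescaled (limma adjusted p = 0.0030).

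As deposited 9 of the 10 genes passed limma as higher in KO and 0 as lower, also 0 at an unadjusted p under 0.05, where 50.1% of all tested genes passed as higher and 4.82% as lower. Rescaled, 9 of 10 passed as higher and 1 as lower, where 20.9% and 18.7% of all genes did. These counts are a description only, since they hold *Tgfb2* and *Ltbp2*; of the 8 genes with a WT mean of at least 0.5 TPM, 7 passed as higher under each scaling. The median log2 difference of the 10 was 0.99 beside 0.35 for all genes, and 0.65 beside -0.04 after rescaling. For the 8 genes with a WT mean of at least 0.5 TPM it was 0.99, and 0.56 rescaled. All 6 KO values lay above all 6 WT values for 5 of the 10 as deposited, where 28.7% of all genes did so, and for 3 of the 10 rescaled, where 10.8% did so. Without *Tgfb2* and *Ltbp2* this held for 3 of 8 as deposited and for 1 of 8, *Tgfbr2*, rescaled. Within males 8 of the 10 had all 3 KO values above all 3 WT values, as had 50.8% of all genes, and within females 9 of the 10 did, as had 43.5%. Rescaled, 7 of the 10 were higher without overlap in males (19.4% of all genes) and 1, *Tgfbr3*, lower (18.0%), and 7 were higher in females (23.0%). All 10 calls kept their direction and their side of the threshold when any of the 12 libraries was left out, as deposited.

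**Figure D3:**
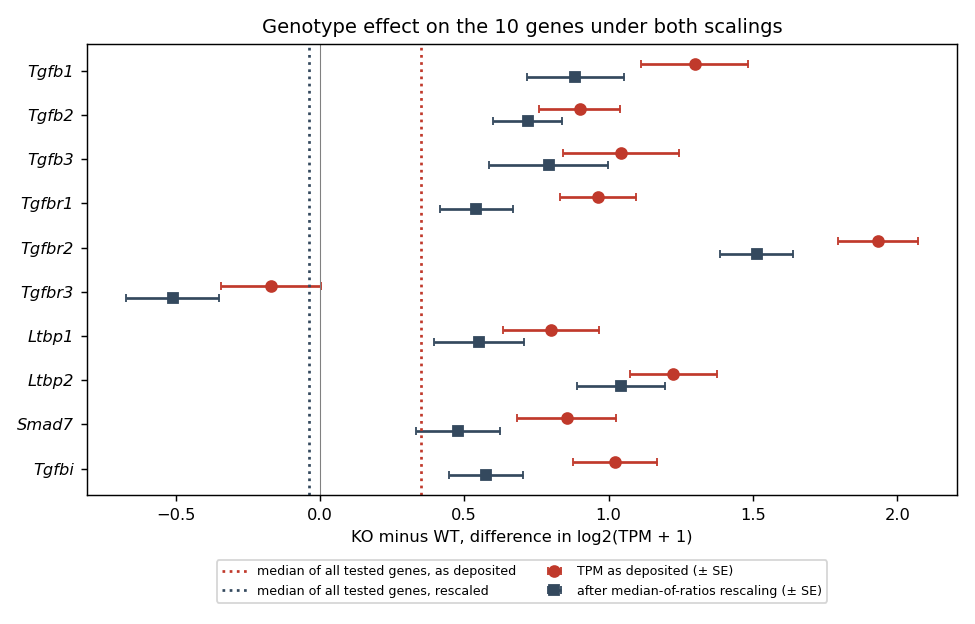
KO minus WT difference in log2(TPM + 1) with its standard error (bars) for each of the 10 genes, as deposited (red circles) and after median-of-ratios rescaling (dark squares), in 6 KO and 6 WT livers. Dotted lines are the medians of all 12278 tested genes, 0.35 and -0.04. Rescaling moves every gene to the left, and *Tgfbr3* alone lies below 0 under both scalings.

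TPM is per length, so levels can be ranked across genes. In WT livers *Tgfbi* was highest at a mean of 20.5 TPM, and its range did not overlap that of *Tgfbr1* below it. *Tgfbr1*, *Tgfb1*, *Tgfbr2*, *Smad7* and *Tgfbr3* followed between 6.45 and 3.35 TPM, each overlapping the next, and *Ltbp1*, *Tgfb3*, *Tgfb2* and *Ltbp2* had means under 1 TPM. In KO livers *Tgfbr2* had moved from the fourth place to the place behind *Tgfbi*, ahead of *Tgfb1* and *Tgfbr1*. It was above *Tgfb1* in all 6 KO livers, and in 4 of the 6 WT livers. Only the steps from *Tgfbr1* to *Smad7* and from *Smad7* to *Tgfbr3* were free of overlap in KO livers.

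The sexes gave the same directions. In males 9 of the 10 genes passed as higher, where 43.3% of all genes did, and in females 8 of 10, where 29.1% did, by limma at an adjusted p of 0.05. Rescaled, 6 of 10 passed in males (13.9% of all genes) and 6 of 10 in females (15.2%). *Tgfb1*, *Tgfb2*, *Tgfbr2* and *Ltbp2* passed in both sexes under both scalings, *Tgfb2* and *Ltbp2* being the genes tested only through their KO values. With no minimum mean, as deposited, these latter genes had limma adjusted p of 0.00481 and 0.00224 in males and 0.00475 and 0.000725 in females. *Tgfbr2* was higher by 1.81 in males and 2.06 in females (limma adjusted p = 1.87e-05 and 7.73e-06), and *Tgfb1* by 1.22 and 1.37 (limma adjusted p = 0.00301 and 0.0018).

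*Smad7* was higher by 1.13 in males (limma adjusted p = 0.00181), and its 0.58 in females did not pass (limma adjusted p = 0.0654), though it did without WT male 3 (limma adjusted p = 0.0286) or KO female 2 (limma adjusted p = 0.0278). The call of *Tgfb3* in males, a rise of 0.79 (limma adjusted p = 0.0337), was lost when 1 of 4 libraries was left out. These were WT male 2 (0.75, limma adjusted p = 0.0851), WT male 3 (0.68, limma adjusted p = 0.0941), KO male 1 (0.54, limma adjusted p = 0.130) and KO male 3 (0.69, limma adjusted p = 0.108). That call was also lost after rescaling (0.52, limma adjusted p = 0.207) and with no filter on low values (0.79, limma adjusted p = 0.0551). The call of *Ltbp1* in females, a rise of 0.71 (limma adjusted p = 0.0386), was lost without any of WT male 1, WT female 1, WT female 2, KO male 1, KO female 2 or KO female 3. In these fits the rise was 0.57 to 0.71, with limma adjusted p up to 0.143. The call was also lost after rescaling (0.48, limma adjusted p = 0.142) and without the 20 most abundant genes (0.76, limma adjusted p = 0.0616). With a pseudocount of 0.1 (1.06, limma adjusted p = 0.0620) and with no filter (0.71, limma adjusted p = 0.0563) it was lost too. Of the 10 genes 0 passed the test of the difference itself, the limma interaction of genotype and sex, under either scaling (0 also at an unadjusted p under 0.05), where 0.912% of all genes did as deposited and 0.839% rescaled. The lowest limma adjusted p for the interaction was 0.65, for *Smad7*, with a male minus female difference of 0.55 (SE 0.320).

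Among WT mice 8 of the 10 genes were lower in males than in females under each scaling. The median of all tested genes was itself -0.19 for this comparison as deposited, and -0.01 rescaled. Only *Tgfbi* passed, where 5.74% of all genes did. Its 3 WT males, at 10.2 to 14.2 TPM, were all under the 3 WT females, at 25.8 to 30.4 TPM, a difference of -1.10 (SE 0.198, limma adjusted p = 0.00655), or -0.89 rescaled (limma adjusted p = 0.0170, where 4.38% of all genes passed). *Smad7* was lower in WT males by -0.71 (limma adjusted p = 0.0858), and passed without WT male 3 (-0.96, limma adjusted p = 0.0122). Among KO mice 0 of the 10 passed limma, where 0.0814% of all genes did. At an unadjusted p under 0.05, 3 of the 10 were lower in males among KO mice, where 3.67% of all genes were, and 3 of the 10 among WT mice, where 21.2% were. *Tgfbi* was again lower in every KO male, at 22.5 to 37.4 TPM, than in every KO female, at 46.1 to 61.3 TPM, with a difference of -0.73 (limma adjusted p = 0.69).

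Single livers stood apart in several genes at once. KO male 2 was the lowest of the 6 KO livers in 7 of the 10 genes, *Tgfbr1*, *Tgfbr2* and *Smad7* being the exceptions. WT male 2 was the lowest WT liver in 5 genes and WT female 3 the highest in 5. KO male 2 was also the lowest KO liver in the summed markers of 9 of 13 cell types, the 4 others being neutrophils, B cells, platelets with megakaryocytes, and mesothelium. The part of these in its low values was not tested.

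Cell type markers moved with the genotype as well, and their counts of calls stand beside the shares of all genes, 50.1% higher and 4.82% lower as deposited and 20.9% and 18.7% rescaled. In whole liver, more cells of a type and more RNA per cell cannot be told apart. Recruited macrophage markers, summed over 6 genes, were at 5.19 to 11.9 TPM in WT and 48.7 to 99.96 TPM in KO livers, and 6 of 6 passed as higher under both scalings. That count is a description only, since 4 of the 6, *Ccr2*, *Itgam*, *Cx3cr1* and *Gpnmb*, had WT means under the minimum of 0.5 TPM and were tested only through their KO values. These 4 were named after their values were seen. Kupffer cell markers were at 60.8 to 206.5 and 285 to 597 TPM, with 5 of 6 higher as deposited, and 4 higher and 1 lower rescaled. Myofibroblast and portal fibroblast markers were at 9.78 to 27.2 and 53.4 to 116 TPM, with 5 of 6 higher as deposited (50.1% of all genes) and 3 of 6 rescaled (20.9%).

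The other stromal lists overlapped between genotypes. Quiescent stellate cell markers summed to 35.7 to 85.9 TPM in WT and 29.7 to 91.9 TPM in KO livers, with 2 of 6 higher as deposited, a smaller share than the 50.1% of all genes, and 3 of 6 lower rescaled, where 18.7% of all genes were. Sinusoidal endothelial markers summed to 50.6 to 86.4 and 34.7 to 121 TPM, with 1 higher and 1 lower of 6 as deposited (50.1% and 4.82% of all genes) and 2 lower rescaled (18.7%). Bile duct markers summed to 12.4 to 17.5 and 22.8 to 33.5 TPM without overlap as deposited. Of 4 tested, 2 were higher and 1 lower as deposited, and 1 was higher and 1 lower rescaled. Neutrophil markers summed to 0.294 to 21.2 and 12.4 to 46.1 TPM, with *Ly6g* listed at 0 in all WT livers, and the T cell gene *Trac* was listed at 0 in every liver. No marker of the other lists named was at 0 in all livers of a genotype. The part of these cell types in the levels of the 10 genes was not tested.

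**Figure D4:**
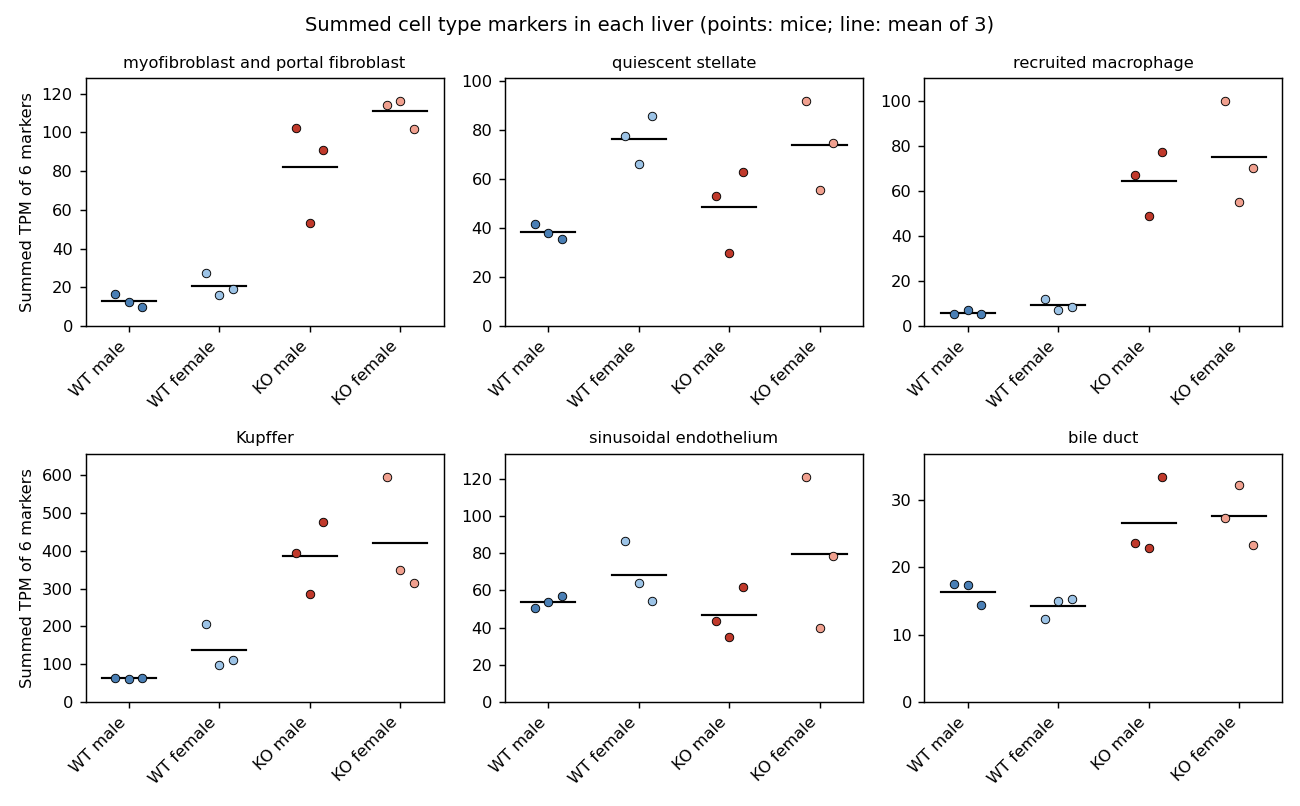
Summed TPM as deposited of 6 marker genes for each of 6 liver cell types in each of 12 livers, with points for mice and a line at the mean of the 3 mice of each group. The y axes start at 0 and differ between panels. On this scale recruited macrophage, Kupffer, myofibroblast and bile duct sums do not overlap between WT and KO livers, whereas stellate and sinusoidal sums do.

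The rest of the pathway was read through 6 lists of other genes. Of these, *Fbn1* and *Mmp9* of the latency list, *Timp1* and *Lox* of the response list and *Fstl3* of the activin and BMP list had WT means under 0.5 TPM and were tested only through their KO values, and the counts that hold them are a description only. Of these 5 genes, all but *Timp1* were named after their values were seen. Of the genes that hold or release latent TGF-beta, 12 of 15 tested passed as higher and 1 as lower, where 50.1% and 4.82% of all genes did, with a median of 0.99. Rescaled, 10 were higher and 1 lower, where 20.9% and 18.7% of all genes were, with a median of 0.67. *Mmp2*, a gelatinase, went from 1.67 ± 0.999 to 11.8 ± 3.83 TPM (SD, n = 6 each here and below), a log2 rise of 2.26 (limma adjusted p = 2.32e-06). *Thbs1*, the activator thrombospondin-1, went from 0.652 ± 0.477 to 7.07 ± 4.07 TPM, a rise of 2.19 (limma adjusted p = 3.81e-05). *Mmp14*, a membrane-bound matrix protease, went from 11.98 ± 3.02 to 56.2 ± 15.3 TPM, a rise of 2.13 (limma adjusted p = 5.82e-07).

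Unlike both latency genes among the 10, *Ltbp4*, a binding protein that carries TGF-beta 1, was lower, at 12.3 ± 4.13 TPM in WT and 8.87 ± 3.37 TPM in KO livers. Its call, at a difference of -0.44 (limma adjusted p = 0.0303), was lost when WT female 2, WT female 3, WT male 3, KO female 1 or KO male 2 was left out. In these fits the difference was -0.42 to -0.33, with limma adjusted p of up to 0.0748. The call was also lost when WT female 3 and KO female 1, the animals with early numbers, were both left out (-0.33, limma adjusted p = 0.124). Without sex as a covariate it was lost at an unchanged difference of -0.44 (limma adjusted p = 0.155). Rescaled, the difference was -0.86 (limma adjusted p = 0.000737). WT values reached from 8.13 to 17.3 TPM and KO values from 4.20 to 14.2 TPM, so the groups overlapped.

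Of the co-receptors and receptor-binding proteins, 5 of 9 tested passed as higher, close to the 50.1% of all genes, with a median of 0.47, and 4 passed rescaled, where 20.9% of all genes did, with a median of 0.04. *Fkbp1a*, whose product FKBP12 holds the type I receptor inactive, went from 45.5 ± 4.88 to 124 ± 16.3 TPM, a rise of 1.42 (limma adjusted p = 2.23e-07). *Acvrl1*, an endothelial type I receptor for BMP9 and BMP10, went from 0.968 ± 0.448 to 3.68 ± 0.895 TPM, a rise of 1.25 (limma adjusted p = 4.15e-06). *Vasn*, which encodes a TGF-beta trap, went from 5.27 ± 1.58 to 10.6 ± 1.48 TPM, a rise of 0.92 (limma adjusted p = 0.000269).

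Of the SMADs and their regulators, 12 of 17 passed as higher, where 50.1% of all genes did, with a median of 0.41, close to the 0.35 of all genes. Rescaled, 5 of 17 passed, near the 20.9% of all genes, with a median of 0.05. *Nedd4l*, a ubiquitin ligase that targets activated SMAD2 and SMAD3, rose by 1.68 (limma adjusted p = 2.23e-05). *Tgif1*, a co-repressor, rose by 1.51 (limma adjusted p = 9.2e-07), from 6.26 ± 1.24 to 19.5 ± 2.32 TPM. *Skil*, which encodes the co-repressor SnoN, rose by 0.99 (limma adjusted p = 0.00717), a call that was lost after rescaling (0.58, limma adjusted p = 0.143).

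Of genes known to respond to TGF-beta, 19 of 22 tested passed as higher, where 50.1% of all genes did, with a median of 0.99. Rescaled, 11 of 22 passed, where 20.9% of all genes did, with a median of 0.70. *Col1a1*, a chain of type I collagen, went from 2.90 ± 1.08 to 62.0 ± 17.2 TPM, a rise of 4.01 (limma adjusted p = 6.72e-09). *Timp1*, an inhibitor of matrix proteases, went from 0.364 ± 0.249 to 11.9 ± 4.68 TPM, a difference of 3.20 (limma adjusted p = 4.02e-08) in a gene tested only through its KO values. *Acta2* and *Fn1* of this list did not pass, at log2 differences of 0.78 and 0.37, and both were named after their values were seen. *Col1a1*, *Acta2* and *Postn* of this list are also in the myofibroblast marker list. *Thbs1*, *Skil* and *Pmepa1*, which all passed as higher, are each also in 1 of the lists above and are counted in both.

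Of the matrix proteins that bind TGF-beta, 6 of 7 tested passed as higher, where 50.1% of all genes did, with a median of 1.19. Rescaled, 4 of 7 passed, where 20.9% of all genes did, with a median of 0.89. *Lum*, the proteoglycan lumican, rose by 2.76 (limma adjusted p = 1.26e-07), from 4.76 ± 1.83 to 39.2 ± 16.8 TPM. *Lgals1*, which encodes galectin-1, rose by 2.31 (limma adjusted p = 1.74e-07), and *Bgn*, the proteoglycan biglycan, by 1.35 (limma adjusted p = 1.71e-05). As deposited, 0 genes of the co-receptor, SMAD, response and matrix lists passed limma as lower in KO in the comparison of all 12 mice, and 0 did so at an unadjusted p under 0.05. Within females 1 gene of these lists, *Tgfbr3l* of the co-receptor list, passed as lower at -1.16, where 4.68% of all genes passed as lower; it was named after its values were seen. Within males 0 genes of these lists did, where 2.81% of all genes did, and also 0 at an unadjusted p under 0.05.

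Activin and BMP ligands and antagonists, the neighbouring branches of the family, split in direction. Of 18 tested, 6 passed as higher and 4 as lower with a median of -0.02, where 50.1% and 4.82% of all genes did. Rescaled, 6 passed as higher and 9 as lower with a median of -0.40, where 20.9% and 18.7% of all genes did. *Bmp6*, the ligand that drives hepcidin, went from 1.54 ± 0.289 to 19.6 ± 7.53 TPM, a rise of 2.95 (limma adjusted p = 2.23e-07). *Fstl1* rose by 1.71 and *Fst*, the activin antagonist follistatin, by 1.56 (limma adjusted p = 1.54e-05 and 0.000292). *Inhbe*, an activin subunit of hepatocytes, fell by 1.24 (limma adjusted p = 0.0135), *Bmp2* fell by 0.72 (limma adjusted p = 0.0153) and *Bmp10* fell by 0.70 (limma adjusted p = 0.000257). The difference was uneven between sexes for *Bmp2*, at -1.22 in males and -0.22 in females, and for *Inhbe*, at -0.70 and -1.78. Both overlapped between genotypes, *Bmp2* at 4.88 to 8.37 TPM in WT and 1.81 to 7.61 in KO livers, and *Inhbe* at 5.21 to 21.5 and 2.16 to 9.02.

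**Figure D5:**
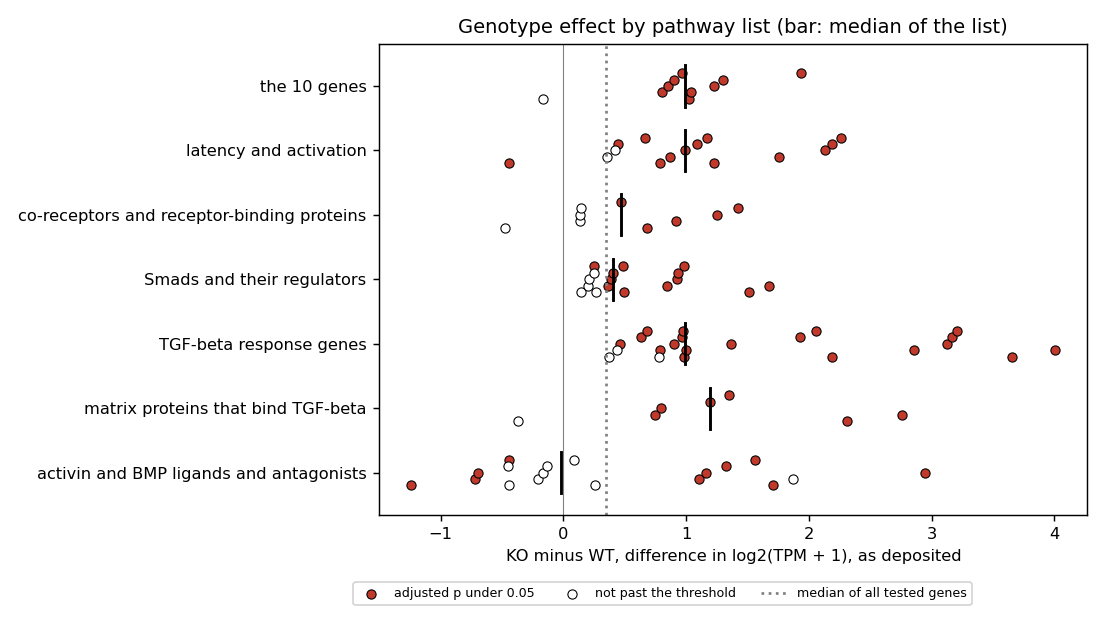
KO minus WT difference in log2(TPM + 1), as deposited, for each tested gene of the 10 genes and of 6 pathway lists, in 6 KO and 6 WT livers. Filled points passed the limma threshold, open points did not, black bars are list medians and the dotted line is the median of all tested genes at 0.35. The latency and response lists have medians of 0.99, and the activin and BMP list has points on both sides of 0.

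The genes whose profile over the 12 mice was most like that of each ligand were found by the mean absolute difference of log2(TPM + 1), each gene centred on its own mean. For *Tgfb1* they were *Acvrl1* at 0.155, *Itpripl2* at 0.178 and *Ttyh3* at 0.18. For *Tgfb2* they were *Plekhg2* at 0.072, *Sestd1* at 0.0952 and *Ap1s2* at 0.102. For *Tgfb3* they were *Svep1* at 0.165, *Cyth3* at 0.175 and *Thbs2* at 0.18. All 9 had higher mean TPM in KO than in WT livers, as the ligands did, and this is a description of these 12 libraries with no test.

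In the authors' deposited table, the log2 fold changes of KO against WT were 1.27 for *Tgfb1*, 2.33 for *Tgfb2*, 1.40 for *Tgfb3*, 1.57 for *Tgfbr2*, 1.36 for *Ltbp1*, 2.86 for *Ltbp2*, 0.95 for *Smad7* and 0.98 for *Tgfbi*. The authors' deposited table lists each of these 8 with an FDR of 0.00 to 2 decimals. Both *Tgfbr1* and *Tgfbr3* did not pass there, and *Ltbp2* and *Tgfb2* had the largest fold changes of the 10, as they had the largest ratios of mean TPM here.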

How the data were processed

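RNA sequencing of whole liver from 12 mice (6 WT, 6 KO, 3 of each sex) was analysed from 1 deposited table. Per the file headers, the authors deposited TPM per gene and library, and each TPM column sums to 1000000, so a value is a share of a library. The authors' own comparison of KO against WT is deposited beside it as fold change, log2 fold change and FDR p-value, the last to 2 decimals. GRCm38 and edgeR are named, with no role, per the submitters' processing notes, and aligner, counter, strand use and annotation are not given in the sources used here. Read depth is not given in the sources used here, so no counting intervals are given.

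Groups came from the sample titles, each of which names its own animal, and all 12 columns matched 1 sample each. Values were analysed as log2(TPM + 1) for 12278 genes whose mean TPM reached 0.5. The models were run in limma 3.58.1 under R 4.3.3 (moderated by eBayes with trend, two-sided, Benjamini-Hochberg over all tested genes, threshold 0.05). The genotype effect had sex as a covariate, and effects within and between sexes came from 1 model of the 4 group means. Ratios within libraries and *Yap1* were tested by exact permutation within sex over 400 arrangements. The code was tested on simulated data. Alternatives were median-of-ratios rescaling, removal of the 20 most abundant genes, a pseudocount of 0.1, no filter or a mean TPM of 1, no trend, no sex covariate, a term for the 2 animals with early numbers or their removal, and each library left out. Rescaling without KO male 2 was added after seeing the data.

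The 10 genes, all pathway lists and all marker lists were chosen with earlier results of these data known. Named are the 10 genes, *Yap1*, up to 3 genes of each pathway list with the largest called change in each direction, and the 3 genes most like each ligand; others are said to be so. The values of 1 gene that this rule names are not reported here. Positions are from GENCODE mouse release 21 (GRCm38), promoters from RefSeq (GRCm38.p6).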

Additional observations from a re-analysis of the deposited data

Results flagged for a closer look

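*Tgfbr1* in KO male 3 was far from the other KO livers, at 17.5 TPM where the other 5 lay between 11.9 and 13.6 TPM. The gap to the nearest was 0.701 of the whole KO range, above Dixon's critical value of 0.625 for 6 samples. It was 1 of 26 such group tests, and chance flags about 1 in 20 groups. KO male 3 also had the highest *Tgfbr2*, at 29.3 TPM, and the largest rescaling factor, 1.34. After rescaling its *Tgfbr1* was 13.03 TPM. Without this mouse the genotype effect on *Tgfbr1* kept its call.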

How the results depend on the processing

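The genotype calls of the 10 genes kept direction and side of the threshold under every alternative run, except that *Tgfbr3* passed as lower after rescaling alone (-0.51); *Tgfb2*, with a mean under 1 TPM, had no value under the stricter filter. No paired analysis was possible because the labels carry no replicate numbers, and the numbers used here only name the mice. Genes passing in males fell from 5663 to 2959 after rescaling, and to 2597 with KO male 2 also left out. Genes passing for sex in WT numbered 705, but 409 with a term for the 2 early animals, 465 without them, 425 after rescaling without KO male 2, and 291 to 1698 when 1 library was left out (1698 without WT male 3). For sex in KO they were 10, and 6 without KO male 2 under both scalings (6 to 10 over all left-out libraries). For the interaction they were 112, and 75 to 176 (176 without WT male 3). The change in the *Tgfb1* share of the ligands was -7.12 to -4.18 percentage points. The cause of these shifts was not tested, beyond the fewer mice in fits that leave some out.

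Interaction and sex differences that never passed changed sign as follows. The interaction was -0.010 for *Tgfbr3* rescaled, 0.21 for *Tgfb2* with a pseudocount of 0.1, and 0.18 for *Tgfb1*, 0.10 for *Tgfb2* and -0.093 for *Ltbp1* without the early animals. Rescaled without KO male 2, *Tgfb2* had an interaction of 0.12 and a sex difference in KO of 0.019. With 1 library left out, the interaction ranged from -0.21 to 0.054 for *Tgfbr1*, -0.41 to 0.15 for *Tgfb1*, -0.24 to 0.17 for *Tgfb2*, -0.062 to 0.42 for *Ltbp1* and -0.15 to 0.35 for *Tgfbr3*. The *Tgfbr3* effect ranged from -0.22 to 0.10 in males and from -0.46 to 0.039 in females. The sex difference in KO ranged from -0.37 to 0.0365 for *Tgfb2*, -0.053 to 0.21 for *Tgfbr1* and -0.14 to 0.21 for *Tgfbr2*.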

Other observations

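Integrin genes that can release latent TGF-beta differed in level and change. *Itgav*, the alpha-v subunit, was higher in KO livers by 1.09 on the log2(TPM + 1) scale, *Itgb5* by 1.23 and *Itgb1* by 0.66, each past the limma threshold, and rescaled *Itgav* (0.67) and *Itgb5* (0.77) still passed while *Itgb1* (0.20) did not. *Itgb6* and *Itgb8*, whose products pair with alpha-v in epithelial and other cells, were under the minimum mean and were not tested. *Smad3* was higher by 0.94 and passed rescaled (0.52), whereas *Smad2*, higher by 0.39, did not (0.0054). These genes were chosen after their values were seen.

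Of the activin subunit genes, *Inhbb* passed as higher (1.16) and *Inhbc* as lower (-0.45), both also rescaled (0.91 and -0.90). The growth factor gene *Gdf15* had a log2 difference of 1.87 and did not pass over all 12 mice (limma adjusted p = 0.117). That value averages unlike sexes, with a difference of 0.10 in males and 3.63 in females. These too were chosen after their values were seen.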
